A study of Homo sapiens with 2 samples.

Results

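The 10 genes described here encode proteins that restrain or set the activity of mTORC1, the nutrient-sensing kinase complex, and the translation steps it controls: DDIT4, DDIT4L, SESN1, SESN2, SESN3, NIBAN1, EIF4EBP1, DEPTOR, RHEB and TSC1. All 10 were found among the 19775 genes with at least 1 probe set annotated to a single symbol, and together they had 27 of the 54613 probe sets compared. They were measured in QGP1, an established human cell line from a pancreatic neuroendocrine tumour. One Affymetrix array held RNA of QGP1 cells sorted by flow cytometry for high aldehyde dehydrogenase (ALDH) activity, a property used to enrich for stem-like tumour cells, and the other held RNA of control QGP1 cells. No treatment, genotype change or time point is named for either group, and the sources used here do not say whether control cells were sorted too. The genes were chosen with their differences on these same arrays already known, so the values below describe the arrays, with no test. There was 1 array per group, so no difference has a replicate check, an error or a p-value.

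mTORC1 drives cap-dependent translation and cell growth when amino acids, energy and growth factors are ample. The GTPase RHEB switches it on at the lysosome, and the TSC complex, which contains TSC1, keeps RHEB off. Under stress, cells lower mTORC1 activity by making inhibitors such as DDIT4 (REDD1) and the sestrins, while DEPTOR binds the kinase directly and 4E-BP1, the product of EIF4EBP1, blocks the cap-binding protein eIF4E once mTORC1 no longer phosphorylates it. DDIT4, SESN2 and EIF4EBP1 are known targets of ATF4, the transcription factor of the integrated stress response, and NIBAN1 is known as a gene induced by endoplasmic reticulum stress.

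The mTORC1 inhibitors DDIT4, SESN2 and DEPTOR were lower in the ALDH-high cells, as were NIBAN1 and EIF4EBP1, while RHEB and TSC1 were nearly level. NIBAN1, DDIT4, SESN2 and DEPTOR were each over 2-fold lower, EIF4EBP1 was 1.85-fold lower, and DDIT4L, RHEB, SESN1, TSC1 and SESN3 differed by no more than 1.19-fold. Over 2-fold lower were therefore 4 of 10 genes, where 1.23% of all genes were, and over 2-fold higher were 0 of 10, where 0.465% of all genes were. The median difference (log2, ALDH high minus control) of the 10 genes was -0.46, against -0.01 over all genes, and their mean was -1.01. A gene's value is that of its brightest probe set, judged by the average over the arrays. Of the 27 probe sets, 6 were over 2-fold lower and 1 over 2-fold higher, where 0.842% and 0.403% of all probe sets were. In bulk RNA, fewer cells expressing a gene and less RNA per cell cannot be told apart.

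The 3 genes with the largest differences are shown first by the DNA before their transcription starts, together with RHEB, whose difference was -0.01, so that the promoter letters of genes low together stand beside those of a gene that was level. The 250 bases before the start are from RefSeq on GRCh38.p14, read on the gene's own strand: DDIT4 at chr10:72273674-72273923 (plus strand), SESN2 at chr1:28259268-28259517 (plus), NIBAN1 at chr1:184974509-184974758 (minus) and RHEB at chr7:151519896-151520145 (minus). Capitals mark matches on either strand to ACGTG, the core bound by hypoxia-inducible factors, and to CCAAT, the box bound by NF-Y. The CCAAT search was added after these windows had been read.
DDIT4: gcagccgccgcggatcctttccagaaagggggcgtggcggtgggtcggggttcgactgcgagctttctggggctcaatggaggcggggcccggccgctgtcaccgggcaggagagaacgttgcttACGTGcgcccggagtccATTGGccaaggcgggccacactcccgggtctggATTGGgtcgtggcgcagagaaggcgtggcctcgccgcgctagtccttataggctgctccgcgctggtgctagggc
SESN2: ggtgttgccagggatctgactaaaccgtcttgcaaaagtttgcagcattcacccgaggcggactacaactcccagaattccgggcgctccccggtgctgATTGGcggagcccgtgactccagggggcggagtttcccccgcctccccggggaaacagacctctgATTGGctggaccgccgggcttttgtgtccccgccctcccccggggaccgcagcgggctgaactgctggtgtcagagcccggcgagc
NIBAN1: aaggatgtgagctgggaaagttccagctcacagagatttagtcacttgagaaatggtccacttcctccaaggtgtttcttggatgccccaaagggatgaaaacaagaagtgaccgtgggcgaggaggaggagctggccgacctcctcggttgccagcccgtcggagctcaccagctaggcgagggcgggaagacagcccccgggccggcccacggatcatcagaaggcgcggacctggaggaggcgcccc
RHEB: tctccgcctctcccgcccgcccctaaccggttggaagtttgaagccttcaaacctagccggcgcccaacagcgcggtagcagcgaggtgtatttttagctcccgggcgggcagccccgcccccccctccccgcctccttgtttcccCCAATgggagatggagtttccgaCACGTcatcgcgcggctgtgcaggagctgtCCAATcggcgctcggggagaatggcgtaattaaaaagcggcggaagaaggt

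DDIT4 held 1 ACGTG match, 125 bases before its start, and 2 CCAAT matches at 108 and 75 bases, and no match overlapped another. SESN2 held 2 CCAAT matches, at 151 and 86 bases before its start, and NIBAN1 held none of the motifs searched. RHEB also held 1 ACGTG match (81 bases) and 2 CCAAT matches (104 and 51 bases), so these letters were not particular to the genes over 2-fold lower. Other members that differed little held fewer. The DDIT4L, SESN3 and TSC1 windows held 0 matches to either motif. The SESN1 windows held 0 ACGTG matches and 1, 1 and 0 CCAAT matches. Among 34788 distinct windows of the same length, 18.5% held ACGTG at least once, 32% held CCAAT at least once and 9.53% held it 2 times or more. The C/EBP-ATF element TGATGNAAN, to which ATF4 binds, and the FOXO core GTAAACA were searched on both strands as well and matched 0 of the 10 windows of 8 member genes. Of all windows 3.14% held the first and 2.98% the second. The windows of EIF4EBP1 and DEPTOR are not among the 10. A window this short shows only that these letters are not in it.

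The inhibitors that act through the TSC complex come first. DDIT4, whose protein frees the TSC complex from inhibition and so lowers mTORC1 activity under hypoxia, energy stress or glucocorticoids, had a level (log2) of 9.21 in ALDH-high cells, against 12.10 in control cells. Its difference of -2.89 is a 7.39-fold lower level and the 10th lowest of all 19775 genes. DDIT4 was still well above the array median of 5.68 in the ALDH-high cells, so its fold does not rest on a dim level, but it has a single probe set (202887_s_at), of a type that can bind more than 1 transcript. DDIT4L, the paralogue known as REDD2, stood at 4.42 in ALDH-high and 4.47 in control cells, below the median on both arrays. A gene this dim could show little, and its difference of -0.04 does not say that DDIT4L behaved unlike DDIT4. TSC1, the scaffold of the TSC complex, was at 8.78 in ALDH-high and 8.68 in control cells, a difference of 0.10.

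The sestrins, which restrain mTORC1 in response to stress and amino acid shortage through the GATOR complexes, did not differ together. SESN2, also a leucine sensor, had levels of 6.80 in ALDH-high and 8.69 in control cells by probe set 223195_s_at. The second probe set, 223196_s_at, gave 6.52 in ALDH-high and 8.36 in control cells. Both placed SESN2 lower in the ALDH-high cells, by 3.70-fold and 3.57-fold, and its difference of -1.89 was the 32nd lowest of all genes. SESN1, a sestrin known as a p53 target, was at 8.35 in ALDH-high and 8.30 in control cells, a difference of 0.06. SESN3, a sestrin known as a FOXO target, was at 8.10 in ALDH-high and 7.84 in control cells on its brightest probe set (225123_at), a difference of 0.25. SESN1 and the brightest SESN3 probe set were above the array median on both arrays, so for these genes a difference of the size seen for SESN2 would have had room to show.

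SESN3 had 7 probe sets, and they did not agree. The 6 others were below the array median on both arrays. One of them, 235683_at, stood at 4.96 in ALDH-high and 3.68 in control cells, a difference of 1.29, and was the only 1 of the 27 member probe sets over 2-fold higher. Probe set 235684_s_at, which the annotation gives the same source sequence record, differed by 0.36 (3.95 in ALDH-high and 3.58 in control cells). The other 4 differed by between -0.13 and 0.26. The median over all 7, 0.25, is the value of the brightest probe set itself, so it adds nothing to that value.

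NIBAN1, a stress-induced protein reported to affect the phosphorylation of eIF2alpha and 4E-BP1, had the largest difference. Its brighter probe set (217967_s_at) was at 6.31 in ALDH-high and 9.69 in control cells, a difference of -3.38 and a 10.4-fold lower level, the 4th lowest of all genes. The second (217966_s_at) was at 5.58 in ALDH-high and 8.21 in control cells, a difference of -2.63 or 6.20-fold. On both probe sets the control level was well above the array median, while the ALDH-high level lay near it, just above for the first and just below for the second. The probe sets disagreed by 0.75 on the log2 scale, so the direction rests on both and the size of the fold on which one is read. NIBAN2, a related gene, was at 8.29 in ALDH-high and 8.20 in control cells.

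The direct inhibitor of the kinase and the translational repressor were also lower, by smaller amounts. DEPTOR, a subunit of both mTOR complexes that inhibits the kinase, was at 8.03 in ALDH-high and 9.43 in control cells (218858_at), a 2.65-fold lower level and the 88th lowest difference. The second DEPTOR probe set (234071_at) pointed the same way, at 2.97 in ALDH-high and 3.71 in control cells, but was dim on both arrays. EIF4EBP1, the repressor of cap-dependent translation, was at 9.87 in ALDH-high and 10.75 in control cells on its single probe set (221539_at). Its difference of -0.88 fell short of 2-fold, yet was the 337th lowest of all genes.

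RHEB, the activator of mTORC1, had the most probe sets of the member genes, all read on the same arrays. Its brightest probe set (201453_x_at) was at 12.29 in ALDH-high and 12.30 in control cells. All 9 RHEB probe sets differed by between -0.26 and 0.25, 6 of them above 0 and 3 below, with an SD of 0.17 across probe sets. Of those above 0, 201451_x_at, 241795_at, 213409_s_at and 243008_at were below the array median on both arrays and could show little. The brighter RHEB probe sets ran between -0.26 and 0.12. No probe set of RHEB came near the differences of DDIT4, NIBAN1 or SESN2.

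**Figure D1:**
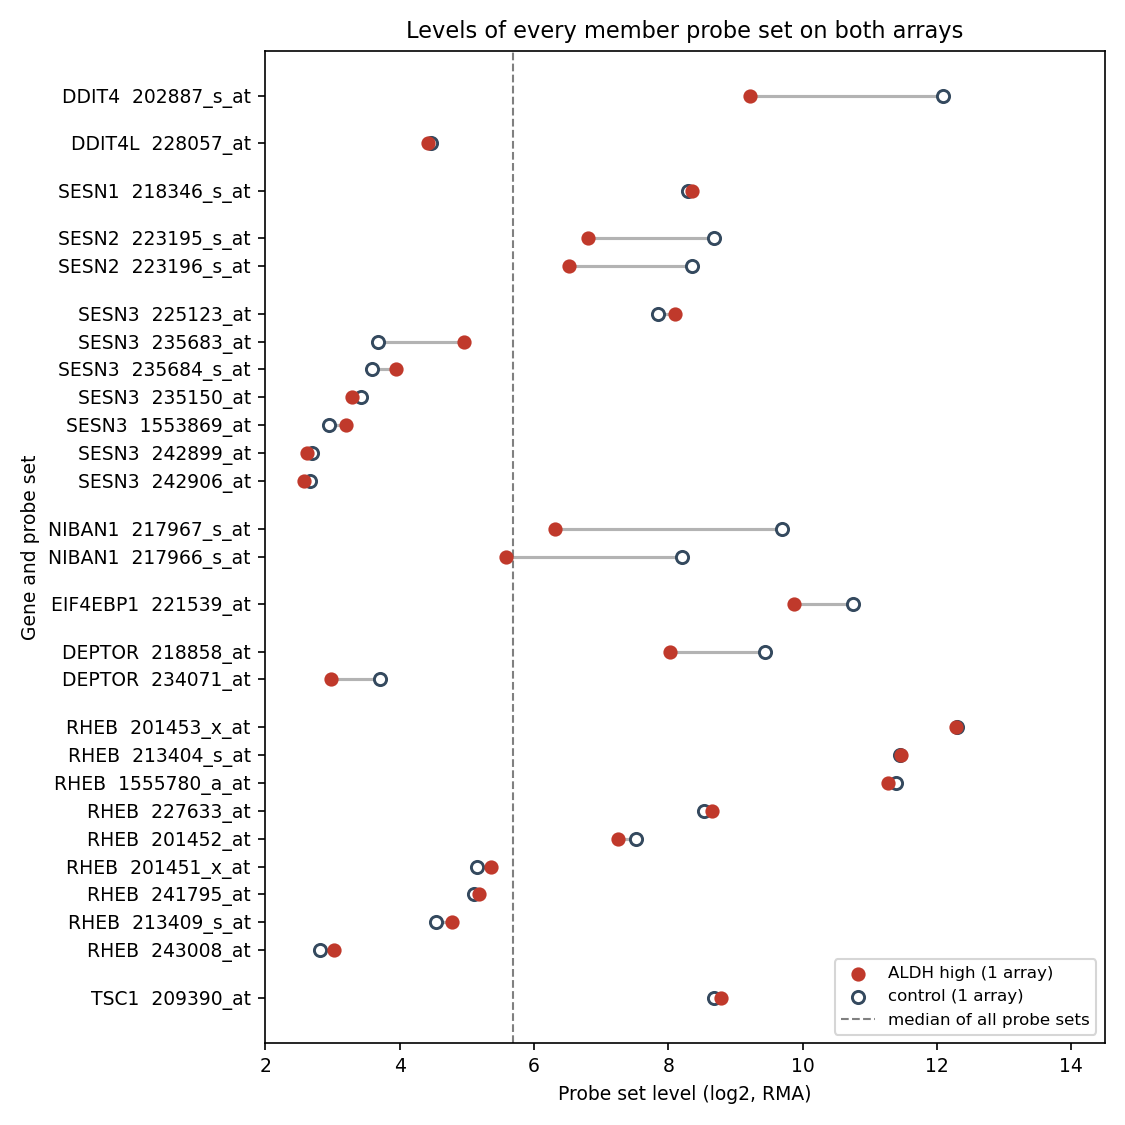
Levels (log2, horizontal axis) of all 27 probe sets of the 10 genes in ALDH-high (filled) and control (open) QGP1 cells, 1 array each, joined by a line per probe set; the dashed line is the median of all probe sets, 5.68. DDIT4, both SESN2, both NIBAN1 and both DEPTOR probe sets and EIF4EBP1 lie lower in ALDH-high cells, whereas the 9 RHEB pairs nearly coincide.

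A yardstick for these differences is the spread between probe sets of the same gene, whose pooled SD was 0.23 over 10523 genes with several probe sets. It covers neither separate cultures nor separate sorts. Ordered from the lowest difference, the genes ran NIBAN1, DDIT4, SESN2, DEPTOR, EIF4EBP1, DDIT4L, RHEB, SESN1, TSC1 and SESN3. Between neighbours in that order, the gap exceeded 2 SD of such a gap (0.65) only between DDIT4 and SESN2 (0.998) and between EIF4EBP1 and DDIT4L (0.842). The probe sets of NIBAN1 alone lay 0.75 apart, so a gap past that line can also arise within 1 gene. DDIT4L was dim on both arrays and could show little. With 1 array per group as well, neither gap is a firm separation. NIBAN1 and DDIT4 (gap 0.49), SESN2 and DEPTOR (0.48), and DEPTOR and EIF4EBP1 (0.52) could not be ordered by this measure, nor could the 5 genes from DDIT4L to SESN3, which lay within 0.15 of their neighbours.

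**Figure D2:**
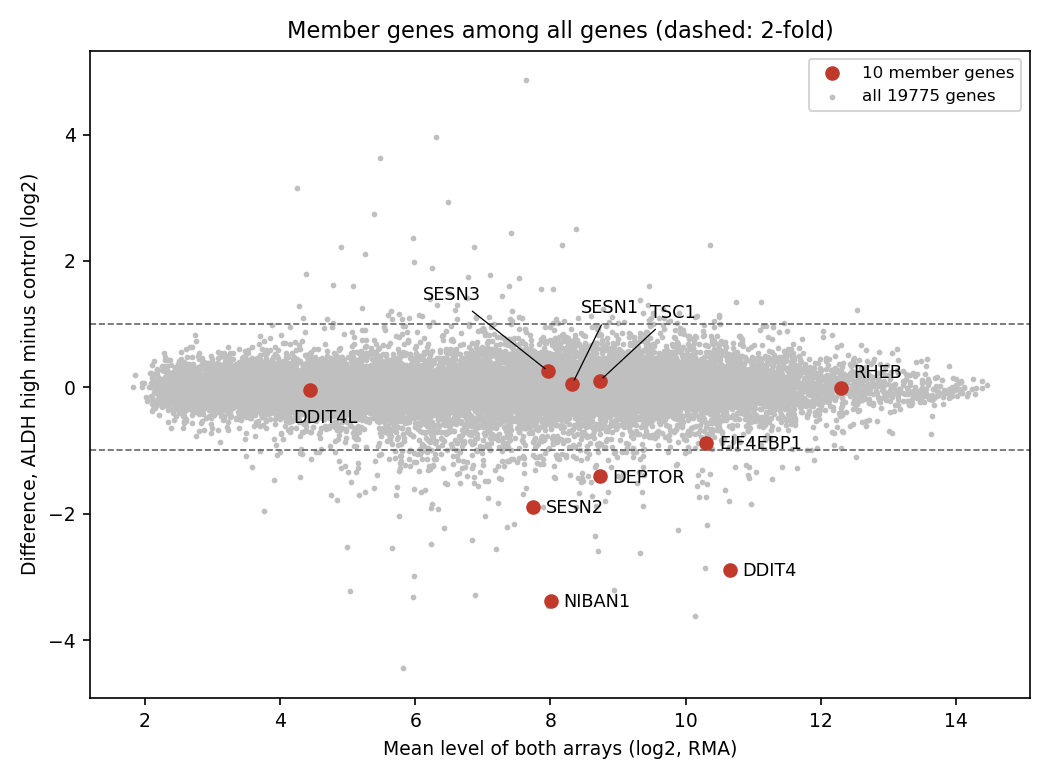
Difference (log2, ALDH high minus control, vertical axis) against the mean level of both arrays (log2, horizontal axis) for all 19775 genes in grey and the 10 genes in red; dashed lines mark 2-fold. NIBAN1 (-3.38) and DDIT4 (-2.89) lie at the lower edge of all genes, SESN2 (-1.89) and DEPTOR (-1.41) below the 2-fold line, EIF4EBP1 (-0.88) just above it, and the other 5 near 0.

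The rest of the mTORC1 machinery differed little. Of 10 mTOR complex genes, which include the kinase MTOR (7.62 in ALDH-high and 7.42 in control cells) and the mTORC1 subunit RPTOR (7.09 in ALDH-high and 7.00 in control cells), 0 were over 2-fold different and the median difference was 0.11. The one with the largest difference was TELO2, an assembly factor of the kinase, at 0.36. Among 3 partners of TSC1 and RHEB, TSC2 differed by 0.10, and RHEBL1, a RHEB-like GTPase, by -0.53, with a second probe set at -0.91. The 11 measured genes of GATOR1, GATOR2 and KICSTOR, through which SESN2 signals, had a median of 0 and 0 over 2-fold. Their largest difference was that of KPTN, a KICSTOR subunit, at 0.55. Of 3 amino acid sensors, CASTOR2, a paralogue of the arginine sensor, differed by 0.58, CASTOR1, the arginine sensor itself, by -0.50, and the median was -0.05. The 10 measured upstream kinase genes, of the PI3K, AKT and AMPK arms, had a median of -0.02, 0 of them over 2-fold, with no difference beyond -0.28. PIK3CB, a PI3K catalytic subunit, was at -0.28 on its brightest probe set and at 0.22 on its dim second one, and PRKAB1, an AMPK subunit, was also at -0.28.

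The lysosomal Rag and Ragulator arm held the one further gene over 2-fold. RRAGD, a Rag GTPase that recruits mTORC1 to the lysosome, was at 8.77 in ALDH-high and 9.90 in control cells, 2.19-fold lower, and its second probe set differed by -1.47. FLCN, a GTPase-activating protein for RagC and RagD, was 1.65-fold lower on its main probe set, but its other 3 probe sets differed by between -0.29 and 0.11. Of 12 measured genes in this arm 9 lay below 0 and 3 above, with a median of -0.23, against -0.01 over all genes. Over 2-fold lower was 1 of the 12, where 1.23% of all genes were.

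The translation machinery on which mTORC1 acts differed little as well. Of 8 measured cap-binding and initiation genes, 0 were over 2-fold different and the median was 0.01. EIF4A2 and PDCD4 were read on probe sets below the array median on both arrays and could show little. EIF4E, the cap-binding protein that 4E-BP1 blocks, was at 10.90 in ALDH-high and 10.91 in control cells, and EIF4EBP2, the paralogue of EIF4EBP1, differed by 0.03. EIF4G2, a translation factor related to the scaffold eIF4G, had the largest difference of this list, 0.28 on its main probe set. The 7 S6 kinase and elongation genes had a median of -0.01 and 0 over 2-fold, with EEF2K, the kinase that slows elongation, at -0.42. The 10 genes of eIF2, eIF2B and the eIF2 phosphatase had a median of 0.03 and 0 over 2-fold, with PPP1R15A (GADD34), the stress-induced phosphatase subunit, at -0.47.

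**Figure D3:**
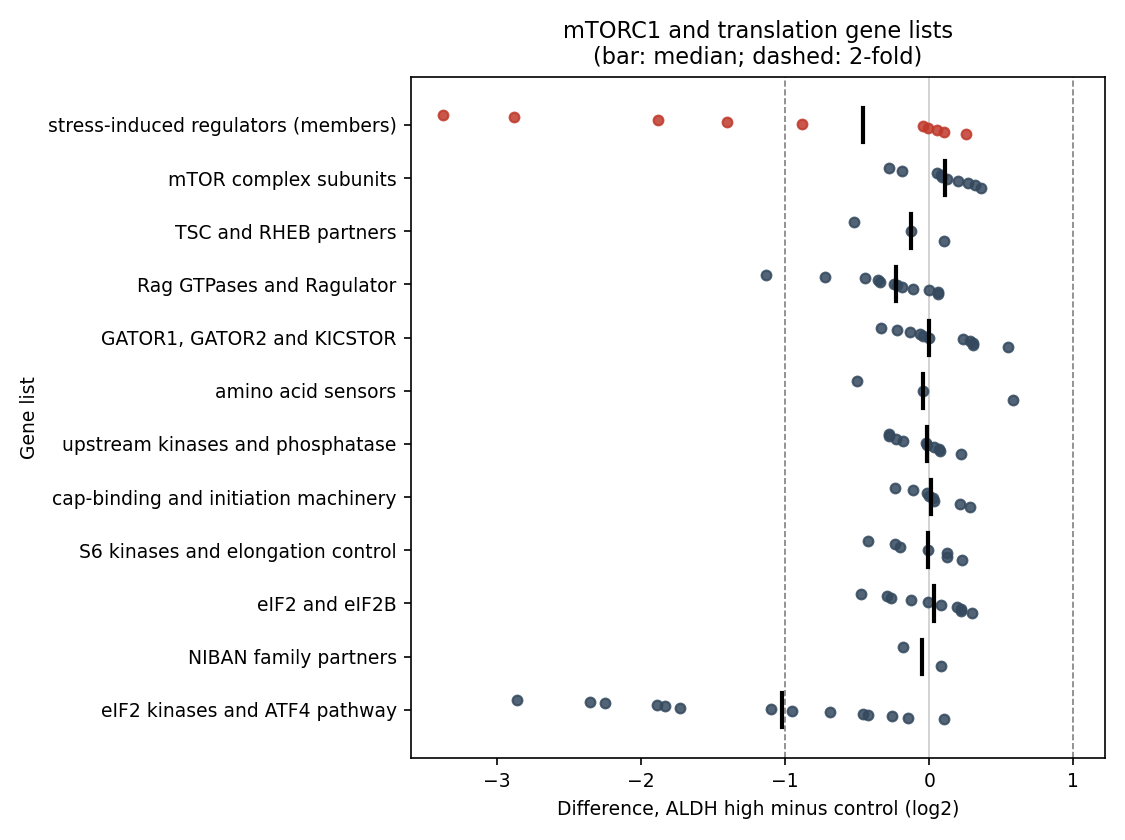
Differences (log2, ALDH high minus control, horizontal axis) of single genes, 1 point each, in the 10 stress-induced regulators (red, top) and 11 further lists of mTORC1, translation and stress genes (dark); thick bars are list medians and dashed lines mark 2-fold. Points beyond 2-fold occur in the top row (4 genes), in the Rag and Ragulator row (RRAGD) and in the row of eIF2 kinases and the ATF4 pathway (7 genes).

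The low members stood beside low levels of the ATF4 pathway, which is known to induce several of them. Of 14 genes for eIF2 kinases, ATF4 and its targets, 7 were over 2-fold lower and 0 higher, where 1.23% and 0.465% of all genes were. Their median was -1.03, against -0.01 over all genes. TRIB3, a pseudokinase induced by ATF4, was at 8.86 in ALDH-high and 11.72 in control cells, and DDIT3 (CHOP) at 8.76 in ALDH-high and 11.01 in control cells. STC2, a secreted stress-response glycoprotein, differed by -2.36, and ATF3, a stress-induced transcription factor, by -1.89 on its main probe set, with its 2 others at -0.85 and 0.24. ATF4 itself was at 11.82 in ALDH-high and 12.78 in control cells, a difference of -0.95. The 4 eIF2 kinase genes differed by between -0.46 (EIF2AK4) and 0.10 (EIF2AK2). These lists were chosen with earlier results of the same arrays known, and the part of ATF4 in the members' differences was not tested.

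Checks of the samples bear on all members alike. The arrays had medians of 5.68 (ALDH high) and 5.69 (control). The 18 hybridisation controls differed by 0.05 on average and the 24 poly-A controls, added before labelling, by 0.32. The 3'/5' signal ratio was 1.83 for ACTB in ALDH-high and 1.67 in control cells, and 1.14 for GAPDH in ALDH-high and 1.15 in control cells. ALDH1A3, an enzyme of the family behind the sort, was at 7.99 in ALDH-high and 6.21 in control cells on its brighter probe set. Its dim second probe set differed by 0.03. ALDH1A1 was at 11.78 in ALDH-high and 12.13 in control cells. All 8 measured neuroendocrine markers reached the median level on at least 1 array, with a median difference of -0.09 and SCG5, a secretory granule protein, differing most at -0.37. INSM1 differed by 0.34 and was the only 1 of the 8 above 0. Markers of other cell types were mostly dim, with 2 of 8 fibroblast and stellate, 1 of 6 endothelial and 1 of 4 measured leukocyte markers reaching the median level. On their brightest probe sets COL1A1 differed by -0.28, PECAM1 by -0.12 and CD3E by -0.18. The other 4 PECAM1 probe sets ran between -0.76 and 0.01 with 3 of them at -0.48 or lower, and the other 4 of COL1A1 between -0.72 and 0.08. Further, 2 dim leukocyte markers were over 2-fold lower, LYZ (4.34 in ALDH-high and 5.67 in control cells) and CD14 (4.30 in ALDH-high and 5.32 in control cells). Among all genes, 1.23% were over 2-fold lower. Above 0 were 2 of 8 fibroblast and stellate, 2 of 6 endothelial and 1 of 4 leukocyte markers. They included COL3A1 (0.31), ESAM (0.37) and PTPRC (0.22), all dim. The summed level (log2) of these lists was 8.49 in ALDH-high and 8.70 in control cells for fibroblast markers, 7.52 in ALDH-high and 7.53 in control cells for endothelial markers, and 6.67 in ALDH-high and 7.30 in control cells for leukocyte markers. No defining marker was at 0, since RMA levels have no zero, and the part of other cell types in the members' differences was not tested.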

How the data were processed

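Gene expression was measured on Affymetrix arrays, 1 for each group, and the groups follow the sample titles. The deposited log2 levels were made by the authors using RMA (named in the submitters' processing notes; the log2 scale was read from the values). This method subtracts background, makes the distributions of the arrays alike and combines the probes into 1 value per probe set, so a change of total RNA per cell is not visible. Its version, the arrays normalised together and detection calls are not stated in the sources used.

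From these levels, 62 control probe sets were left out and the difference, ALDH high minus control, was taken for each of 54613 probe sets with Python 3.11.15, numpy 2.4.6 and pandas 2.3.3. Names came from the platform annotation, using only probe sets with 1 gene symbol, updated through the Entrez ID in RefSeq. A gene took the value of its brightest probe set (average over the arrays), and 2-fold, the threshold of the series description, was the line for counts. With 1 array per group no test was made, and the number of arrays limits the precision. The endings _s_at and _x_at mark probe sets that may bind several transcripts. The gene table and the 2-fold count were tested on simulated data with known changes, all well past 2-fold. The simulated noise was the spread between probe sets of 1 gene. It therefore checked the counting, not how reliable a difference between single arrays is. The 10 genes, the further lists and the motifs were chosen with earlier results of these data known. Named beside the 10 genes are, in each list, up to 4 genes over 1.5-fold different and at or above the median level, at least the one with the largest difference; MTOR, RPTOR, CASTOR1, PRKAB1, EIF4A2, PDCD4, TSC2, EIF4E, EIF4EBP2, ATF4, EIF2AK2, EIF2AK4, LYZ, CD14, ALDH1A1 and ALDH1A3 were added after their values were seen. INSM1, COL3A1, ESAM and PTPRC were also named after their values were seen. List members without a probe set of their own were not analysed here. Promoter windows are the 250 bases before each start in a RefSeq table of GRCh38.p14, given for 8 of the 10 genes. The windows of EIF4EBP1 and DEPTOR are not reported here.

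Alternatives were the mean or median of all probe sets of a gene, leaving out _s_at and _x_at probe sets, a pseudocount of 32 on the linear scale, centring, thresholds of 1.5-fold and 3-fold, and a filter on dim genes.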

Additional observations from a re-analysis of the deposited data

How the results depend on the processing

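Single arrays set the main limit: no alternative can stand in for a second culture or sort. The count of 4 member genes over 2-fold lower was the same under the mean or median of probe sets, the pseudocount and the filter on dim genes. Centring changed nothing by construction, since the median difference of all probe sets was 0. It was 5 at 1.5-fold and 3 at 3-fold. Without _s_at and _x_at probe sets it was 1 (DEPTOR) of the 6 genes left, and the member median was -0.085, because DDIT4, SESN1, SESN2 and NIBAN1 have no other probe set. The count of genes over 2-fold higher was 0 under each alternative, also at 1.5-fold. No member over 2-fold that kept a probe set changed direction. As the mean of its probe sets NIBAN1 differed by -3.01 and DEPTOR by -1.07, and with the pseudocount NIBAN1 differed by -2.95 and SESN2 by -1.63.

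Over all genes, leaving out _s_at and _x_at probe sets gave 197 genes over 2-fold lower and 79 higher. Over 2-fold higher were 56 genes with the mean and 55 with the median of probe sets, and 50 with the pseudocount, against 92. With the pseudocount 127 genes were over 2-fold lower, against 243. At 1.5-fold 833 were lower and 516 higher, and at 3-fold 58 lower and 24 higher. Among the other genes named, TSC22D3 turned to 0.10 without _s_at and _x_at probe sets, on a dim probe set. VEGFA, NDRG1, KLF9 and RRAGD have no other probe set. As the mean of probe sets, ATF3 (-0.83), KLF9 (-0.77), TSC22D3 (-0.68) and PDK1 (-0.60) fell short of 2-fold. TRIB3 (-2.72), DDIT3 (-2.25), STC2 (-2.13), RRAGD (-1.30), NDRG1 (-1.23) and VEGFA (-1.02) stayed past it. No paired analysis was possible because each group has 1 array.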

Other observations

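Genes that share known inducers with DDIT4 and the sestrins were set side by side, as values only. Of 9 measured hypoxia targets all lay below 0, with a median of -0.26, against a median of -0.01 over all genes. Over 2-fold lower were 3 of the 9, where 1.23% of all genes were. They were VEGFA, the angiogenic factor (9.49 in ALDH-high and 10.88 in control cells), NDRG1, a stress-responsive gene (10.28 in ALDH-high and 11.51 in control cells), and PDK1, a brake on pyruvate oxidation (8.43 in ALDH-high and 9.54 in control cells). P4HA1, a collagen prolyl hydroxylase subunit, was 1.64-fold lower on its brighter probe set, and its dim second one differed by -0.12. ADM, ANKRD37 and BNIP3, named after their values were seen, differed by -0.14, -0.03 and -0.26. The VEGFA probe sets ran between -1.39 and -0.64. As the mean of its probe sets PDK1 differed by -0.60.

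Among 6 measured genes of the glucocorticoid response, TSC22D3 (GILZ) was at 7.75 in ALDH-high and 9.23 in control cells and KLF9, a transcription factor, at 6.18 in ALDH-high and 7.36 in control cells. FKBP5, another glucocorticoid target, and the receptor gene NR3C1, both named after their values were seen, differed by -0.04 and 0.20. The KLF9 probe sets ran between -2.15 and -0.05. TSC22D3 differed by -0.67 on its second probe set and by 0.10 on its dim remaining one.

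Known inducers of sestrin genes include p53 and FOXO factors, whose targets were read in the same way. The part of either in the members' differences was not tested. Of 8 measured p53 targets 0 were over 2-fold different and the median was 0.05, with GDF15, a stress cytokine, 1.66-fold lower on its brightest probe set (-0.19 and -0.42 on its other 2) and CDKN1A, the cell cycle inhibitor p21, named after its value was seen, at 0.03. Of 10 FOXO factors and targets 8 lay below 0 and 0 were over 2-fold, with a median of -0.13, against -0.01 over all genes. TXNIP, a regulator of glucose uptake, differed by -0.61, and its 3 probe sets lay between -0.80 and -0.61. BCL6, a transcriptional repressor, differed by -0.62, and its 3 probe sets lay between -0.71 and -0.61.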
